A study of Homo sapiens with 15 samples.

Results

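RNA of Caco-2 monolayers kept for 24 h in rinse aid diluted 1:40000 was compared with RNA of unexposed monolayers of the same line, with 5 libraries in each group. These 10 of the 15 libraries of the series were chosen by their titles, and the 5 libraries exposed at 1:10000 are used for values set beside those at 1:40000. Caco-2 is a human colorectal carcinoma line that forms a polarised, enterocyte-like monolayer at confluence, and rinse aids for dishwashers hold surfactants that let water run off the dishes. The dilution at 1:10000 was 4 times as concentrated as that at 1:40000. Polyadenylated RNA was sequenced, and the labels name no genotype, transfection or co-treatment in any group. The labels do not say whether replicates were separate cultures, and p-values therefore measure no more than the spread between these libraries, which may be technical.

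Cells that sense a shortage of amino acids, a load of unfolded protein or other insults can phosphorylate the translation factor eIF2, which lowers general protein synthesis and favours translation of the transcription factor ATF4. ATF4, with partners of the C/EBP family, activates genes for amino acid synthesis, amino acid import and the charging of transfer RNAs, and also feedback regulators and the pro-apoptotic factor DDIT3. This program is called the integrated stress response. Intestinal epithelium also restrains the passage of its contents through tight junctions, and repairs damage through ligands of the epidermal growth factor (EGF) receptor.

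Total counts were 4333226 to 14230853 in the controls and 2551839 to 172092447 at 1:40000, where replicate 1 was 67.4 times as deep as replicate 2. Headers of the control files name RNA STAR and those of both rinse aid groups HISAT2, per the file headers, and the gene annotation differed too, so that exposure, aligner and annotation cannot be told apart in any comparison with control. The comparison between the dilutions shares both. Within each group, replicates 1 and 2 stood apart from replicates 3 to 5 on the second principal component (4.25% of the variance of the 10 libraries), while the first (87.1%) separated the groups. With replicates 1 and 2 of every group left out 6828 of 13227 genes were called, and with replicates 1 and 2 alone 5506 of 13125 (both alternatives chosen after seeing the data). Mitochondrial ribosomal RNA made up 0.280% ± 0.062 of the counts in controls and 0.915% ± 0.281 at 1:40000 (SD, n = 5 each; exact two-sided permutation test, p = 0.00794, the smallest that 5 against 5 allows; Benjamini-Hochberg adjusted over 4 shares, 0.0106). Its part in the results was not tested.

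At 1:40000, 6859 of 13158 genes tested (52.1%) differed from control at a Benjamini-Hochberg adjusted p under 0.05 (edgeR, quasi-likelihood F test), 3440 higher (26.1%) and 3419 lower (26.0%). These shares are the background for every count below, and groups of 5 and 5 did not overlap in 18.1% of genes with the exposed libraries higher and in 18.1% with them lower. At least 2-fold changes were fewer, with 879 genes higher (6.68%) and 483 lower (3.67%). The median log2 fold change over all genes was -0.002. Of the 879 genes, 408 were protein-coding and 418 were pseudogenes, a class whose share of counts was 0.224% ± 0.014 in controls and 0.649% ± 0.016 at 1:40000 (SD, n = 5 each). Of the 483 genes, 236 have a transcript outside the primary assembly, against 3.37% of all genes tested. A subset with fewer annotation doubts held 4500 protein-coding genes with the same gene model version, no exon overlap, no annotated pseudogene and no transcript outside the primary assembly. In this clean subset 1186 genes (26.4%) were higher and 1136 (25.2%) lower, and 199 (4.42%) and 83 (1.84%) changed at least 2-fold. Genes named below belong to it unless stated otherwise. Those outside it were chosen after their values were seen. The same holds for other genes that the naming rule, given with the processing, did not pick. Among these are PPP1R15A, CTH, EPRS1, TARS1, MT2A, MT1X, PLS1, BAIAP2L2, EPS8L3 and RBP4. Levels are TMM-normalised read counts at a common library total (CPM), given as mean ± SD over 5 libraries or for replicates 1 to 5 in order, and fold changes are log2 values ± SE at 1:40000 over control.

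**Figure D1:**
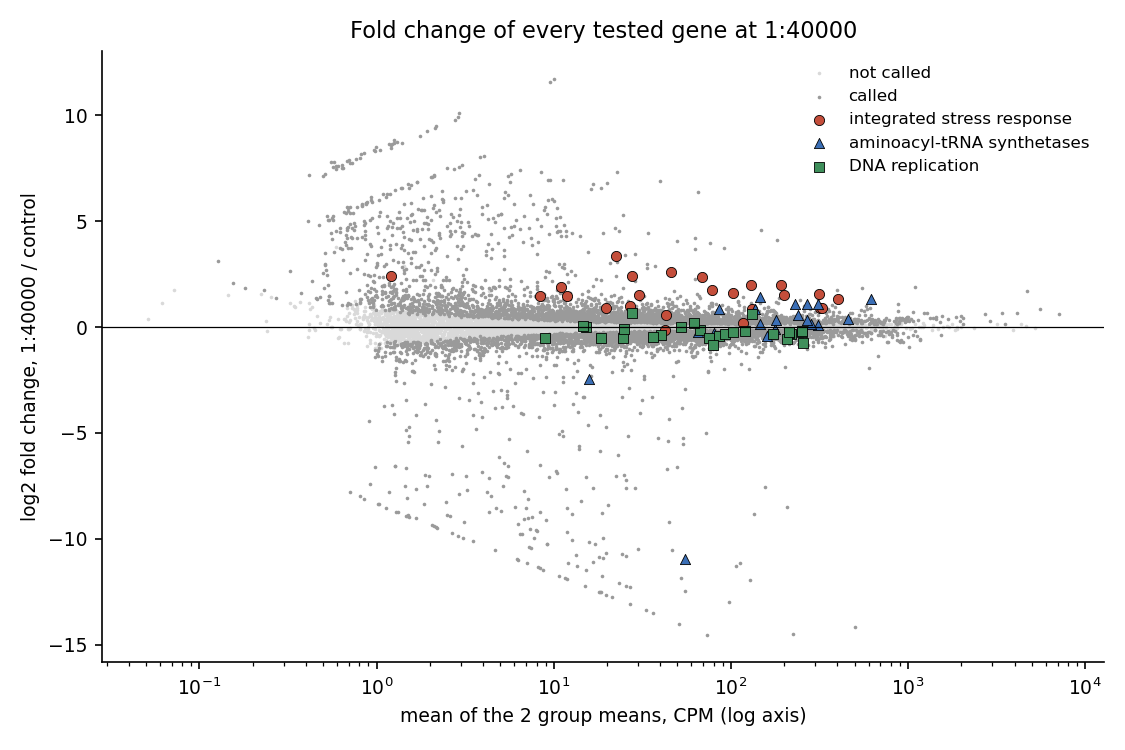
Log2 fold change at 1:40000 over control (vertical) of the 13158 tested genes against the mean of the group means (CPM, log axis). Called genes are dark grey and others light grey; red circles are integrated stress response genes, blue triangles aminoacyl-tRNA synthetases and green squares DNA replication genes. The red circles lie above 0 except for ATF5 at -0.15, and the scattered points above 5 and below -5 are mostly genes near absent in the files of 1 aligner.

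INHBE had the highest fold change at 1:40000 of the clean genes that averaged 5 CPM or more and whose groups did not overlap, as 34.1% of clean genes did not. INHBE (ENSG00000139269), which encodes the activin subunit beta E, lies on chromosome 12 from 57452323 to 57459280 (GENCODE 29 on GRCh38, used for all gene positions below). It stood at 0.799, 0.881, 0.222, 0.680 and 1.16 CPM in control replicates 1 to 5 and at 13.1, 11.8, 11.4, 14.8 and 12.2 CPM in those at 1:40000. Every exposed library lay far above every control, and the log2 fold change was 4.01 ± 0.22 (± SE, adjusted p = 7.32e-14). At 1:10000 it stood at 7.94 ± 1.73 CPM (SD, n = 5), lower than at 1:40000 by 0.69 on the log2 scale (adjusted p = 0.000606). ULBP1, a stress-induced ligand of the natural killer cell receptor NKG2D, rose from 2.44 ± 0.61 to 15.7 ± 2.80 CPM at 1:40000, and stood at 11.1 ± 1.71 CPM at 1:10000. S100P, a calcium-binding protein of the S100 family, rose from 2.53 ± 0.92 to 19.0 ± 2.52 CPM and stood at 57.8 ± 12.8 CPM at 1:10000. KIF1A, a kinesin motor of vesicle transport, rose from 2.91 ± 1.34 to 20.1 ± 2.25 CPM. AKNA, a protein of the centrosome, and UNC5B, a netrin receptor, rose from 21.1 ± 2.31 to 118 ± 34.1 and from 21.6 ± 3.99 to 103 ± 26.9 CPM. TRANK1 rose from 4.25 ± 0.96 to 22.1 ± 4.81 CPM. HNRNPA1L3, listed at 8.62 ± 2.30 and 66.5 ± 3.76 CPM, is a near-identical copy of HNRNPA1, so its counts are uncertain.

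Under the same limits on level and overlap, the lowest fold changes of clean genes were those of PUF60 and TACO1. PUF60, a splicing factor, stood at 54.7, 57.3, 58.1, 56.0 and 62.0 CPM in the controls and at 0.991, 1.91, 3.41, 10.8 and 3.89 CPM at 1:40000, a log2 fold change of -4.06 ± 0.49 (edgeR, adjusted p = 1.68e-05). TACO1, a translational activator of mitochondrial cytochrome oxidase, fell from 26.9 ± 4.03 to 2.87 ± 0.72 CPM. Both were about as low at 1:10000, with 2.29 ± 1.01 and 2.08 ± 0.60 CPM, and neither differed between the dilutions by the test (adjusted p = 0.476 and 0.192). Exposure and aligner cannot be told apart for them. Also among the 8 lowest were the enterocyte and liver-type genes SI, FGB and FGG, described below, with SMLR1, which fell from 34.1 ± 7.78 to 8.43 ± 1.74 CPM, and CYP4X1, a cytochrome P450, which fell from 11.2 ± 1.69 to 2.79 ± 0.42 CPM. By adjusted p among clean genes changed at least 2-fold, the 4 leading higher genes were HNRNPA1L3, STC2, SARS1 and TRIB3, and the 4 leading lower ones TACO1, WSB1, UPF2 and AQP3. WSB1, a substrate receptor of a ubiquitin ligase, stood at 86.7 ± 9.36 CPM in controls, 34.0 ± 2.62 at 1:40000 and 58.5 ± 5.50 at 1:10000, so its level was lower at the weaker dilution than at the stronger (log2 difference at 1:10000 over 1:40000, 0.80 ± 0.09, adjusted p = 2.38e-08). UPF2, a factor of nonsense-mediated mRNA decay, fell from 64.5 ± 5.15 to 30.7 ± 1.65 CPM.

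Genes of the integrated stress response were higher at 1:40000 in 23 of 24 tested members and lower in 0, with a median log2 fold change of 1.52 and 16 members at least 2-fold higher. ATF5, the remaining member, stood at -0.15 ± 0.09 (adjusted p = 0.202). The 8 members in the clean subset were all higher (median 1.46). Of the 26 genes listed, NUPR1 and FGF21 had too few counts to be tested.

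**Figure D2:**
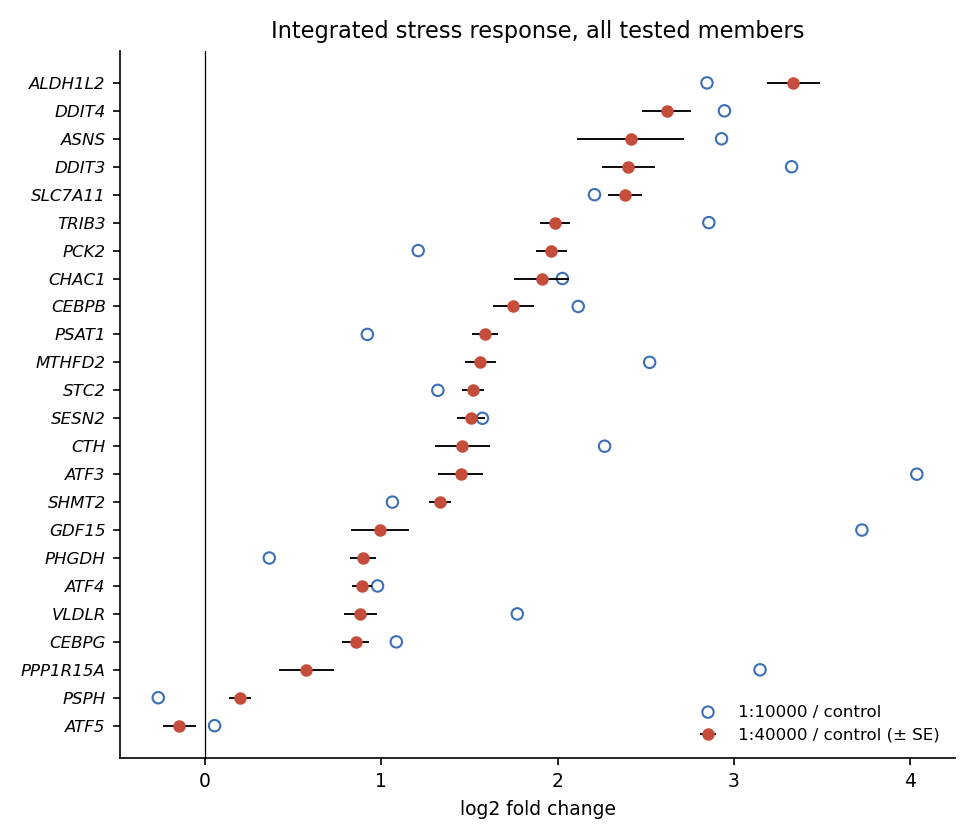
Log2 fold change over control of all 24 tested integrated stress response genes. Filled red points with bars are values at 1:40000 ± SE and open blue circles values at 1:10000 against the same controls; ALDH1L2 is highest at 1:40000 with 3.34, and ATF3, GDF15 and PPP1R15A lie further right at 1:10000.

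The transcription factors of the program other than ATF5 were higher. ATF4 itself (outside the clean subset) rose from 223 ± 13.2 to 413 ± 13.5 CPM at 1:40000. DDIT3, also known as CHOP (ENSG00000175197, outside the clean subset, chromosome 12 from 57516588 to 57521737), stood at 8.39, 10.5, 9.10, 8.09 and 8.14 CPM in the controls and at 63.2, 51.6, 40.1, 39.9 and 37.7 CPM at 1:40000. All exposed libraries lay above all controls, replicates 1 and 2 highest, and the log2 fold change was 2.40 ± 0.15 (edgeR, adjusted p = 4.22e-11). ATF3 stood at 5.79, 5.87, 5.99, 5.92 and 8.27 CPM in the controls and at 19.8, 19.1, 15.4, 17.0 and 15.9 CPM at 1:40000. Its groups did not overlap, and the log2 fold change was 1.45 ± 0.13 (adjusted p = 9.24e-10). CEBPB (outside the clean subset) and CEBPG, partners of ATF4, rose from 35.8 ± 5.92 to 120 ± 20.3 and from 93.2 ± 4.55 to 169 ± 15.6 CPM.

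Feedback regulators and effectors of the program were higher as well. TRIB3, a pseudokinase that restrains ATF4 and DDIT3, stood at 81.3, 81.8, 82.3, 74.4 and 68.7 CPM in the controls and at 384, 308, 271, 267 and 303 CPM at 1:40000. All exposed libraries lay well above all controls, with a log2 fold change of 1.99 ± 0.09 (edgeR, adjusted p = 1.32e-15). CHAC1, which degrades glutathione, rose from 4.76 ± 1.30 to 17.1 ± 0.92 CPM. DDIT4 and SESN2, inhibitors of the growth kinase mTORC1 (both outside the clean subset), rose by 2.62 ± 0.14 and 1.51 ± 0.08 on the log2 scale. PPP1R15A, the phosphatase subunit that reverses eIF2 phosphorylation, rose from 35.1 ± 3.78 to 51.4 ± 13.6 CPM and stood at 309 ± 28.6 CPM at 1:10000. GDF15, a stress-induced cytokine (outside the clean subset), rose from 18.5 ± 3.38 to 35.8 ± 6.41 CPM and stood at 242 ± 42.1 CPM at 1:10000.

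Enzymes of serine, glycine, cysteine and folate metabolism made up another arm. PHGDH, which commits carbon to serine synthesis (ENSG00000092621, chromosome 1 from 119648411 to 119744226), stood at 226, 254, 227, 217 and 217 CPM in the controls and at 492, 446, 373, 412 and 401 CPM at 1:40000. The groups did not overlap, and the log2 fold change was 0.90 ± 0.07 (edgeR, adjusted p = 1.72e-10). PSAT1, the next enzyme of the pathway (outside the clean subset), stood at 49.9, 51.4, 54.4, 49.0 and 52.6 CPM in the controls and at 135, 155, 165, 162 and 157 CPM at 1:40000. PSPH, the last enzyme of the pathway (outside the clean subset), moved less, from 109 ± 2.28 to 125 ± 5.06 CPM. ALDH1L2, a mitochondrial folate enzyme (outside the clean subset), rose from 4.03 ± 0.89 to 41.1 ± 5.39 CPM, and the mitochondrial folate enzymes MTHFD2 and SHMT2 (both outside the clean subset) by 1.56 ± 0.09 and 1.34 ± 0.06 on the log2 scale. CTH, which makes cysteine from cystathionine, rose from 4.55 ± 0.79 to 12.3 ± 2.95 CPM. PCK2, the mitochondrial phosphoenolpyruvate carboxykinase (outside the clean subset), rose from 53.1 ± 4.09 to 207 ± 26.4 CPM. ASNS, the asparagine synthetase (outside the clean subset), had few counts, with 0.412 ± 0.081 CPM in the controls and 1.99 ± 0.57 CPM at 1:40000.

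Set directly against 1:10000, with the same aligner and annotation on both sides, members of the program lay on both sides. Of all genes 57.3% differed between the dilutions, 28.3% higher and 29.1% lower at 1:10000. Of the 24 stress response genes, 11 were higher at 1:10000 than at 1:40000 and 7 were lower, the latter a share near that of all genes. The 11 were ATF3, PPP1R15A, GDF15, DDIT3, DDIT4, TRIB3, CEBPB, CEBPG, MTHFD2, CTH and VLDLR, with log2 differences from 0.23 to 2.73. The 7 were PCK2, PSAT1, PHGDH, ALDH1L2, PSPH, SHMT2 and STC2, with log2 differences from -0.75 to -0.20. PCK2 stood at 251.6, 206, 183, 195 and 199 CPM at 1:40000 and at 110, 143, 127, 115 and 120 CPM at 1:10000, against 55.5, 58.0, 52.4, 52.2 and 47.2 CPM in the controls. The 3 groups did not overlap for PCK2, and the weaker dilution held the highest levels (log2 difference -0.75, edgeR, adjusted p = 3.33e-08). PHGDH stood at 307, 329, 273, 264 and 298 CPM at 1:10000, a log2 difference of -0.53 from 1:40000 (adjusted p = 1.03e-06). ATF3 ran the other way, at 126, 113, 90.0, 98.7 and 94.8 CPM at 1:10000, where every library lay far above those at 1:40000 (log2 difference 2.59 ± 0.10, adjusted p = 5.32e-15).

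**Figure D3:**
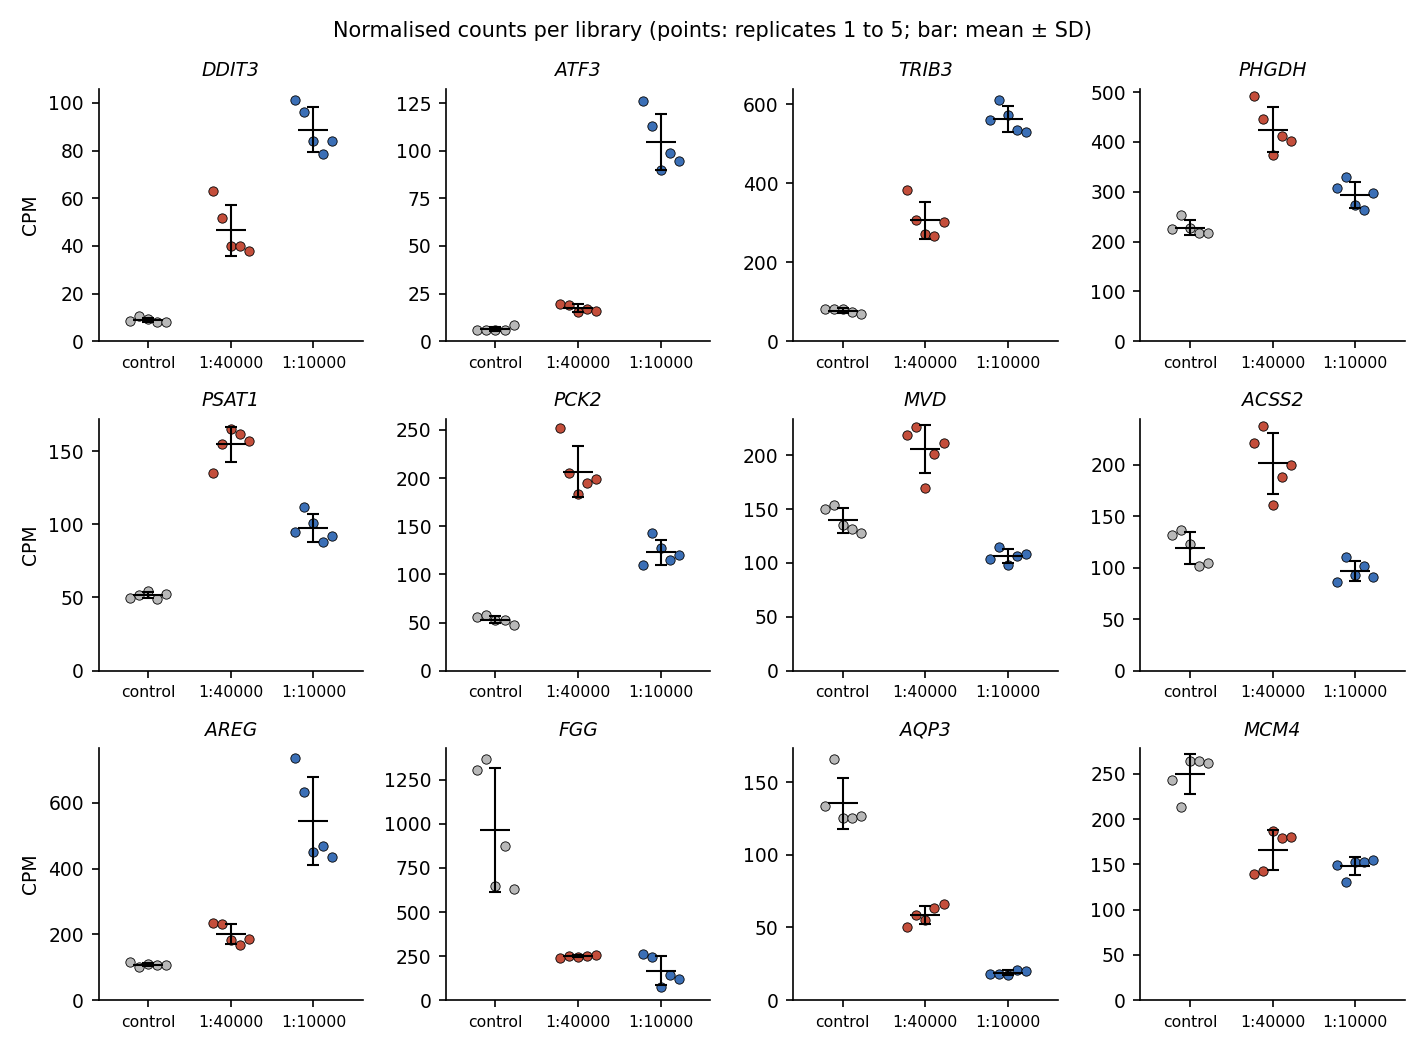
Normalised counts (CPM, each axis from 0) of 12 genes in each library of the control, 1:40000 and 1:10000 groups; points are replicates 1 to 5 and bars the mean ± SD. DDIT3, ATF3, TRIB3 and AREG are highest at 1:10000, PHGDH, PSAT1, PCK2, MVD and ACSS2 are highest at 1:40000, and FGG, AQP3 and MCM4 are lower at both dilutions than in controls.

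Aminoacyl-tRNA synthetases, which charge transfer RNAs with amino acids, were higher in 11 of 20 and lower in 5 (median 0.33, all 4 clean members higher). SARS1, the seryl-tRNA synthetase, stood at 81.5, 81.8, 76.5, 76.3 and 81.9 CPM in the controls and at 234, 222, 201, 206 and 196 CPM at 1:40000, a log2 fold change of 1.41 ± 0.06 (edgeR, adjusted p = 2.41e-16). Its groups lay far apart, while its level at 1:10000, 207 ± 7.71 CPM, was not called different from that at 1:40000 (adjusted p = 0.667). IARS1, the isoleucyl-tRNA synthetase, stood at 143, 150, 152, 148 and 144 CPM in the controls and at 351, 314, 305, 315 and 291 CPM at 1:40000, and with 247 ± 12.7 CPM it was lower at 1:10000 than at 1:40000 (adjusted p = 1.00e-05). The clean members EPRS1 and TARS1 rose by 0.38 ± 0.05 and 0.34 ± 0.06 on the log2 scale. Of the other higher members, AARS1, GARS1, MARS1, YARS1, WARS1, LARS1 and NARS1, all outside the clean subset, AARS1 rose from 354 ± 22.8 to 883 ± 70.5 CPM. The 5 lower members also lay outside the clean subset. CARS1 stood at 26.7 ± 1.68 CPM in controls, 4.80 ± 1.31 CPM at 1:40000 and 3.20 to 5.58 CPM at 1:10000. Exposure and aligner cannot be told apart for CARS1. VARS1 all but vanished from the rinse aid files (described at the end), and RARS1, HARS1 and FARSA changed by -0.44 to -0.25.

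Amino acid transporters were higher in 8 of 17 and lower in 2 (median 0.35). SLC43A1, a facilitated transporter of large neutral amino acids, stood at 37.0, 37.4, 32.2, 27.8 and 30.6 CPM in the controls and at 87.8, 83.7, 73.0, 73.0 and 78.5 CPM at 1:40000 (log2 fold change 1.27 ± 0.09, edgeR, adjusted p = 3.98e-12). Its level at 1:10000, 46.7 ± 3.15 CPM, lay between the other groups. SLC7A1, the cationic amino acid transporter, rose from 145 ± 8.18 to 345 ± 27.8 CPM. Among members chosen after their values were seen, SLC3A2 and SLC36A1 included, SLC6A9, a glycine transporter, and SLC1A5, a glutamine transporter (both outside the clean subset), rose by 1.83 ± 0.12 and 0.84 ± 0.06. SLC3A2, the heavy chain shared by several exchangers, rose from 368 ± 56.5 to 488 ± 18.6 CPM at 1:40000, and its log2 difference between the dilutions was 1.41 (adjusted p = 2.72e-13). The 2 lower members were SLC36A1, a lysosomal and brush border amino acid transporter, with a log2 fold change of -1.17 ± 0.12, and SLC3A1 (outside the clean subset) at -0.78 ± 0.32 with overlapping groups.

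ATF4 and C/EBP proteins bind a composite DNA element, and the promoters of these genes were searched on both strands for the letters TGATGNAA, where N is any base. RefSeq windows on GRCh38.p14, from 250 bases before to 50 after each start, held the letters in 3.62% of 35116 entries and in 2.68% of the 9961 tested genes with an entry. They were found in 4 of 20 tested stress response genes with an entry, 7 of 16 aminoacyl-tRNA synthetases and 5 of 16 amino acid transporters. A match is a description of letters only. The 5 sequences, 5′ to 3′ on the strand of the gene, show the match in capitals in genes that rose at 1:40000, from CHAC1 (chr15:40953222-40953309, plus strand), ATF3 (chr1:212565176-212565263, plus), CEBPG (chr19:33374031-33374112, plus), AARS1 (chr16:70289646-70289733, minus) and IARS1 (chr9:92293698-92293750, minus). The first base of the match lies at -209, -191, -42, -187 and -13 from the start site in that order.
CHAC1: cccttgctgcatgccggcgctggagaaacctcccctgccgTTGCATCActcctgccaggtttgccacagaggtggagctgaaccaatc
ATF3: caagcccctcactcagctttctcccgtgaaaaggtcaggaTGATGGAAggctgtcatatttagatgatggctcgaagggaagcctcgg
CEBPG: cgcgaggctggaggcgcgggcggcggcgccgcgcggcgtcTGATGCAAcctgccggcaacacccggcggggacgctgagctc
AARS1: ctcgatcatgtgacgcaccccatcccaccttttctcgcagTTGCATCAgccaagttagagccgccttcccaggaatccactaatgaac
IARS1: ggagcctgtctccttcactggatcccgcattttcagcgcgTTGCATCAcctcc
In CHAC1, AARS1 and IARS1 the letters TTGCATCA are the searched letters on the opposite strand, while ATF3 and CEBPG carry them as written. CARS1, which was lower in the files of both rinse aid groups than in those of the controls, also held a match.

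Genes of the unfolded protein response in the endoplasmic reticulum moved in both directions, with 7 of 21 higher and 10 lower (median -0.19). The lower ones were mostly chaperones and folding enzymes. PDIA4, a disulfide isomerase, fell from 514 ± 15.3 to 423 ± 23.9 CPM and DNAJC3, a co-chaperone, from 124 ± 5.32 to 98.7 ± 7.40 CPM. HSPA5, the chaperone BiP, stood at 812 ± 28.96 CPM in controls and 701 ± 27.1 CPM at 1:40000 (log2 fold change -0.21 ± 0.07), and its log2 difference between 1:10000 and 1:40000 was 0.90 (edgeR, adjusted p = 4.35e-11). Higher were the sensor ERN1, from 13.1 ± 2.52 to 23.9 ± 6.51 CPM with overlapping groups, and the sensor ATF6, by 0.40 ± 0.07 on the log2 scale. HSPA5, ERN1 and ATF6 were chosen after their values were seen. Of 13 genes in the list of heat shock proteins, which holds mitochondrial chaperonins too, 6 were lower and 1 higher (median -0.18). The higher one was HSF1, the transcription factor of the heat shock response (outside the clean subset, 0.58 ± 0.07), and the lower ones included the co-chaperones BAG3, from 62.5 ± 7.23 to 49.6 ± 2.27 CPM, and HSPH1, by -0.48 ± 0.12 with overlapping groups. NRF2 targets, genes of the oxidant defence, were higher in 7 of 20 and lower in 1 (median 0.07), a count that holds SLC7A11, the cystine importer that is also a stress response gene. ME1, an NADPH-producing enzyme, rose by 0.40 ± 0.07 and ABCC3, an export pump, by 0.36 ± 0.09 with overlapping groups.

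Metallothioneins, small metal-binding proteins, stayed at low levels at 1:40000. MT2A stood at 0, 0.392, 0.444, 0.408 and 0.775 CPM in the controls and at 0.616, 0.382, 1.74, 1.41 and 1.44 CPM at 1:40000, which overlap (adjusted p = 0.282), and at 99.8, 26.0, 69.0, 76.7 and 74.9 CPM at 1:10000. MT1X was at or below 0.512 CPM in every control and 1:40000 library and at 8.54 to 16.9 CPM at 1:10000. Of 8 tested members of the list of metallothioneins and zinc transport, the zinc importers SLC39A10 (log2 fold change 0.26 ± 0.08, overlapping groups) and SLC39A4 (outside the clean subset, 0.94 ± 0.18) were higher and MTF1, the metal-sensing transcription factor, was lower (-0.36 ± 0.13, overlapping groups). The call of MTF1 was lost without control replicate 3, 1:40000 replicate 1 or 1:40000 replicate 4, with log2 fold changes of -0.26, -0.33 and -0.31 (adjusted p = 0.0894, 0.0581 and 0.0657). In the list of xenobiotic metabolism, 5 of 13 were higher and 3 lower (median 0.23, or -0.23 in the clean subset). CYP1A1, the cytochrome P450 induced through the aryl hydrocarbon receptor (outside the clean subset, chosen after its values were seen), stood at 10.4, 8.91, 7.32, 9.86 and 8.66 CPM in the controls and at 175, 131, 93.4, 86.2 and 101 CPM at 1:40000. Every exposed library lay far above every control, with a log2 fold change of 3.69 ± 0.23 (edgeR, adjusted p = 9.01e-09), and at 1:10000 it reached 337 ± 42.8 CPM. ABCG2, an efflux pump of the apical membrane, rose from 23.3 ± 2.29 to 42.5 ± 2.55 CPM and CYP2S1, another cytochrome P450, from 71.1 ± 6.32 to 90.0 ± 9.82 CPM. ABCB1, P-glycoprotein (chosen after its values were seen), fell from 227 ± 9.22 to 122 ± 15.7 CPM.

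Several genes of sterol and fatty acid synthesis stood higher at 1:40000 than both in controls and at 1:10000. Of 25 cholesterol synthesis genes, 11 were higher and 5 lower (median 0.20, or 0.086 without the deepest and the shallowest 1:40000 library), and of 16 fatty acid synthesis genes 9 were higher and 2 lower (median 0.26). Between the dilutions, 17 of the 25 and 11 of the 16 were lower at 1:10000, against 29.1% of all genes. MVD, the decarboxylase of the mevalonate pathway, stood at 150, 154, 135, 132 and 128 CPM in the controls, at 219, 226, 170, 201 and 211 CPM at 1:40000 and at 104, 115, 98.5, 106 and 109 CPM at 1:10000. Every library at 1:40000 exceeded every library of both other groups, with a log2 fold change of 0.55 ± 0.07 over control (edgeR, adjusted p = 8.19e-07) and a log2 difference of -0.94 from 1:40000 to 1:10000 (adjusted p = 1.37e-10). NPC1L1, the intestinal cholesterol importer, rose from 25.9 ± 3.34 to 44.2 ± 7.63 CPM and stood at 22.9 ± 4.70 CPM at 1:10000. ACSS2, which activates acetate, stood at 132, 136, 123, 101 and 105 CPM in the controls, at 221, 237, 161, 188 and 199 CPM at 1:40000 and at 86.1, 111, 93.1, 101 and 91.2 CPM at 1:10000 (log2 fold change 0.75 ± 0.10, adjusted p = 4.18e-06). ELOVL5, a fatty acid elongase, rose from 127 ± 4.88 to 219 ± 26.1 CPM and stood at 214.5 ± 24.5 CPM at 1:10000, not called different from 1:40000 (adjusted p = 0.836). The transcription factor SREBF2 rose by 0.56 ± 0.06 while SREBF1 changed by -1.05 ± 0.17, both outside the clean subset. LSS, an enzyme of the late steps, changed by -1.62 ± 0.10 and ACACA was all but missing there too, and both have transcripts outside the primary assembly.

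Several early response and repair genes rose. Of 24 immediate early genes 12 were higher and 1 lower (median 0.42), of 18 genes of EGF receptor ligands and epithelial repair 10 and 1 (median 0.45), and of 21 YAP targets 13 and 0 (median 0.29). Between the dilutions 20, 14 and 16 of them were higher at 1:10000, against 28.3% of all genes. The median of the YAP targets at 1:40000 was 0.52 with replicates 1 and 2 of every group alone and 0.21 with them left out. AREG, an EGF receptor ligand, stood at 115, 101, 111, 106 and 107 CPM in the controls and at 234, 231, 183, 169 and 187 CPM at 1:40000. The groups did not overlap, replicates 1 and 2 at 1:40000 were highest, and the log2 fold change was 0.89 ± 0.15 (edgeR, adjusted p = 0.000136). Its level at 1:10000 was 544 ± 133 CPM. EREG, another such ligand, rose from 36.8 ± 7.69 to 96.6 ± 25.6 CPM, and PLAUR, the urokinase receptor of migrating cells, from 0.600 ± 0.190 to 2.61 ± 0.81 CPM. Of the immediate early genes, KLF6 and SPRED1, a transcription factor and an inhibitor of RAS signalling, rose by 0.72 ± 0.08 and 0.77 ± 0.10, while MYC rose by 0.72 ± 0.14 with overlapping groups. ANKRD1, a YAP target, rose from 35.0 ± 8.01 to 97.7 ± 12.997 CPM, and GADD45A, a stress-induced growth arrest gene, from 16.3 ± 3.01 to 27.5 ± 2.85 CPM. Of 14 mesenchymal transition and TGF-beta genes 8 were higher and 0 lower (median 0.22). FN1, fibronectin, rose by 0.83 ± 0.08, and VIM, vimentin (outside the clean subset), stood at 0.513 ± 0.418 and 1.28 ± 0.44 CPM with overlapping groups (1.28 ± 0.39). ID1, a target of bone morphogenetic protein signalling in that list, rose from 31.0 ± 3.63 to 48.8 ± 6.71 CPM. AREG, EREG and MYC were chosen after their values were seen.

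Of 33 cytokines and chemokines 11 were tested, and 4 were higher and 0 lower (median 0.40). IL18, a cytokine matured by inflammasomes, stood at 33.7 ± 5.56 CPM in the controls and 46.6 ± 7.23 CPM at 1:40000 with overlapping groups, and the other 3 were IL32, CXCL16 and TGFB1 (outside the clean subset, log2 fold changes 0.52, 0.28 and 0.44). CCL20, a chemokine for lymphocytes and dendritic cells, stood at 0.799, 1.57, 0.222, 1.63 and 1.29 CPM in the controls and at 1.75, 1.91, 1.33, 1.81 and 2.36 CPM at 1:40000, overlapping and not called, against 9.96 to 18.2 CPM at 1:10000. NF-kB genes were higher in 7 of 19 and lower in 4 (median 0.02). The non-canonical subunits NFKB2 and RELB rose from 23.4 ± 2.15 to 47.2 ± 9.14 CPM and from 4.46 ± 0.97 to 8.17 ± 1.60 CPM, while NFKB1 and NFKBIZ fell by 0.57 and 1.40 on the log2 scale (CCL20, RELB, NFKB1 and NFKBIZ were chosen after their values were seen). TNFAIP2, a target of the pathway, rose from 3.29 ± 0.58 to 6.46 ± 2.00 CPM with overlapping groups. Interferon response genes were higher in 1 of 14 and lower in 6 (median -0.16), with STAT2, the interferon signal transducer, at -0.55 ± 0.09 and BST2, an antiviral membrane protein, at -0.39 ± 0.08. Of 19 p53 targets and death receptors 5 were higher and 3 lower (median -0.02), with PMAIP1, the pro-apoptotic protein NOXA, at 0.944 ± 0.177 CPM in controls and 3.76 ± 0.98 CPM at 1:40000.

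Among genes of differentiated enterocytes and of the liver-like secretory program that Caco-2 cells carry, a subset fell strongly. All 3 fibrinogen chains were lower. FGG, the gamma chain (ENSG00000171557, chromosome 4 from 154604134 to 154612967), stood at 1303, 1366, 647, 874 and 630 CPM in the controls and at 240.6, 252.5, 248, 251.7 and 254 CPM at 1:40000. The controls differed by more than 2-fold among themselves, replicates 1 and 2 highest, yet all lay above the exposed libraries (log2 fold change -1.95 ± 0.33, edgeR, adjusted p = 0.000267). Within replicates 1 and 2 the difference of mean log2 CPM was -2.43, and within replicates 3 to 5 it was -1.50. FGB fell from 201 ± 67.3 to 51.3 ± 6.10 CPM, FGA (outside the clean subset) changed by -1.90 ± 0.18, and SERPINA1, alpha-1-antitrypsin (outside the clean subset), by -1.76 ± 0.27. In all, 4 of 14 secreted plasma proteins were lower and 2 higher (median -0.18, or -0.51 for the 12 members that pass a filter at 5 CPM), so ALB at -0.80 ± 0.40, RBP4 at -0.09 ± 0.07 and others were not called. Of 18 fatty acid oxidation genes 7 were lower and 2 higher (median -0.08), HADHB, a subunit of the mitochondrial trifunctional protein, at -0.18 ± 0.06. Its call was lost with upper-quartile scaling (-0.13, adjusted p = 0.0560) and with every gene that had a count kept (-0.10, adjusted p = 0.304).

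Of 9 digestive hydrolases 4 were lower and 2 higher (median -0.33, or -0.53 without the deepest and the shallowest 1:40000 library). SI, the sucrase-isomaltase of the brush border, stood at 28.96, 25.2, 9.32, 18.02 and 12.0 CPM in the controls and at 4.26, 4.96, 3.00, 3.22 and 3.38 CPM at 1:40000, without overlap (log2 fold change -2.36 ± 0.38, edgeR, adjusted p = 0.000124). LCT, lactase (outside the clean subset), fell from 8.16 ± 1.78 to 0.983 ± 0.172 CPM. XPNPEP2, an aminopeptidase, was lower at -0.96 ± 0.36 with overlapping groups, and its call was lost without control replicate 1 or 2 or 1:40000 replicate 3 or 4, where the value was -0.85, -0.67, -0.77 and -0.89 (adjusted p = 0.0687, 0.137, 0.0804 and 0.0611). DPP4, a peptidase of the same membrane, was among the higher, at 445 ± 34.2 and 517 ± 27.4 CPM with overlapping groups (outside the clean subset). Brush border structure genes were higher in 4 of 16 and lower in 5 (median -0.12, or 0.44 over the 5 clean members, of which PLS1, BAIAP2L2 and EPS8L3 were higher). VIL1, villin, changed by -0.37 ± 0.05 (outside the clean subset). Of 18 intestinal and hepatic identity transcription factors 5 were higher and 4 lower (median 0.08). HNF4A, a regulator of enterocyte and hepatocyte genes (outside the clean subset), fell from 572 ± 42.8 to 440 ± 38.0 CPM, while CDX2, a regulator of intestinal identity (chosen after its values were seen), was not called at 172 ± 15.5 and 192 ± 9.69 CPM. The higher factors KLF5 and ONECUT2, at 0.42 ± 0.15 and 0.80 ± 0.27, had overlapping groups. The call of KLF5 was lost on leaving out any of control replicates 2 to 5 or 1:40000 replicates 1 and 2 (log2 fold changes 0.33 to 0.42, adjusted p = 0.0510 to 0.0979) or both the deepest and the shallowest 1:40000 library (0.26, adjusted p = 0.218). It was also lost in an edgeR fit of only the 10 libraries compared (0.43, adjusted p = 0.0575). The call of ONECUT2 was lost without 1:40000 replicate 1 (0.67, adjusted p = 0.0625) or with the replicate block (0.61, adjusted p = 0.0645). It was also lost without both the deepest and the shallowest 1:40000 library (0.74, adjusted p = 0.0514). Lipoprotein assembly genes were higher in 0 of 18 and lower in 5 (median -0.14), APOB, the structural apolipoprotein, at -0.72 ± 0.12 (outside the clean subset) and APOH at -0.61 ± 0.17 with overlapping groups (call lost with every gene kept, -0.53, adjusted p = 0.0507). Mucins and goblet cell products were higher in 0 of 8 and lower in 3 (median -0.26), with TFF2, a trefoil peptide, at -1.47 ± 0.28 and ZG16, a lectin of the mucus, at -1.10 ± 0.31 with overlapping groups. With replicates 1 and 2 of every group left out ZG16 stood at -0.54 (adjusted p = 0.0911).

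Ion and water transport genes were lower in 7 of 19 and higher in 5 (median -0.13, -0.42 over the 10 clean members). AQP3, a water and glycerol channel, stood at 133, 166, 125, 126 and 127 CPM in the controls, at 50.4, 58.8, 55.2, 63.1 and 66.1 CPM at 1:40000 and at 17.9, 18.1, 17.5, 20.9 and 20.2 CPM at 1:10000. The 3 groups were separate and ordered by concentration (1:40000 over control -1.22 ± 0.09, adjusted p = 9.90e-12; 1:10000 over 1:40000 -1.63 ± 0.10, adjusted p = 1.75e-12, both by edgeR). SLC12A2, the basolateral sodium, potassium and chloride cotransporter of fluid secretion (chosen after its values were seen), fell from 204 ± 10.2 to 90.5 ± 17.3 CPM, and AQP11, another channel, from 32.3 ± 3.22 to 15.1 ± 2.09 CPM. SCNN1A, a subunit of the epithelial sodium channel (outside the clean subset), was higher by 0.66 ± 0.11.

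Tight junction genes were mixed, 6 of 27 higher and 8 lower (median -0.08, clean members 4 higher and 3 lower of 11). CGN, the junction adaptor cingulin, stood at 300, 317, 300, 287 and 299 CPM in the controls and at 209, 196, 179, 214 and 223 CPM at 1:40000, a log2 fold change of -0.56 ± 0.06 with separate groups (edgeR, adjusted p = 9.95e-08). Its level at 1:10000, 210 ± 17.6 CPM, was not called different from that at 1:40000 (adjusted p = 0.590). CLDN1, the barrier-forming claudin 1, stood at 142, 132, 105, 116 and 98.5 CPM in the controls and at 226, 215, 152, 157 and 155 CPM at 1:40000, again without overlap, replicates 1 and 2 highest in both groups (log2 fold change 0.60 ± 0.14, adjusted p = 0.00255). PRKCI and PARD6B, partners in the polarity complex, rose from 109 ± 12.0 to 145 ± 14.1 and from 99.2 ± 13.3 to 138 ± 25.6 CPM. Without both the deepest and the shallowest 1:40000 library the value of PARD6B was 0.29 (adjusted p = 0.102). MAGI3, a junction scaffold, fell from 36.7 ± 1.88 to 30.1 ± 1.59 CPM. The call of MAGI3 was lost with every library thinned to the smallest total (-0.27, adjusted p = 0.0807) and with every gene that had a count kept (-0.21, adjusted p = 0.0983). TJP3, zonula occludens 3, rose from 61.6 ± 8.02 to 82.4 ± 16.1 CPM with overlapping groups. Outside the clean subset, the tricellular junction protein MARVELD2 and its relative MARVELD3 changed by -1.35 ± 0.16 and -0.81 ± 0.10, and CLDN2, the channel-forming claudin 2, by -0.62 ± 0.23 with overlapping groups. Adherens junction and desmosome genes were higher in 2 of 17 and lower in 3 (median -0.01), with PKP2, a desmosomal plaque protein, at -0.33 ± 0.06 and NECTIN3, an adhesion molecule, at -0.22 ± 0.07 (call lost with every gene kept, -0.14, adjusted p = 0.169).

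Most genes of DNA replication fell. Of 27 DNA replication genes 19 were lower and 2 higher (median -0.26), and of 13 clean members 7 and 1. MCM4, a subunit of the replicative helicase, stood at 244, 213, 264, 264 and 262 CPM in the controls and at 140, 143, 187, 179 and 180 CPM at 1:40000, a log2 fold change of -0.58 ± 0.08 without overlap (edgeR, adjusted p = 1.80e-06). POLA1, the catalytic subunit of DNA polymerase alpha, fell from 42.5 ± 1.98 to 30.3 ± 4.87 CPM, and CDT1, a licensing factor (chosen after its values were seen), rose from 104 ± 5.08 to 159 ± 17.3 CPM. Of 21 mitosis genes 11 were lower and 3 higher (median -0.18). BIRC5, survivin, fell from 129 ± 14.2 to 90.8 ± 4.12 CPM, CCNB1, cyclin B1, from 278 ± 27.4 to 206 ± 14.7 CPM, and MKI67, the proliferation marker Ki-67 (outside the clean subset), from 351 ± 12.5 to 196 ± 18.1 CPM. With replicates 1 and 2 alone the median of the mitosis genes was 0.08, and with replicates 3 to 5 alone -0.30. Of 17 stem cell and Wnt targets 8 were lower and 5 higher (median -0.34), LGR5, the crypt stem cell receptor (outside the clean subset), from 20.05 ± 3.18 to 6.13 ± 2.28 CPM and TNFRSF19, a receptor of the tumour necrosis factor family, from 120 ± 9.54 to 83.6 ± 5.54 CPM. ZNRF3, a ligase that removes Wnt receptors, fell from 70.3 ± 4.43 to 46.5 ± 5.99 CPM.

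In glucose metabolism, TXNIP, an arrestin-like inhibitor of glucose uptake whose gene responds to glucose, stood at 42.5, 47.6, 33.1, 41.6 and 34.9 CPM in the controls and at 18.2, 15.7, 8.41, 6.85 and 9.22 CPM at 1:40000. The groups did not overlap (log2 fold change -1.77 ± 0.25, edgeR, adjusted p = 3.62e-05), and its level at 1:10000, 13.3 ± 3.46 CPM, was not called different from that at 1:40000. ARRDC4, its relative, fell from 3.46 ± 0.56 to 1.39 ± 0.98 CPM with overlapping groups, and in that list of gluconeogenesis and glucose sensing 4 of 6 were lower and 0 higher. Of 20 glycolysis genes 7 were higher and 6 lower (median 0.05), ENO2, an enolase, from 5.26 ± 1.36 to 9.81 ± 1.15 CPM. Hypoxia genes were higher in 3 of 16 and lower in 5 (median -0.06), NDRG1, a stress-responsive protein, at 118 ± 44.6 CPM in controls and 47.6 ± 6.88 CPM at 1:40000, VEGFA, the endothelial growth factor (outside the clean subset), at 52.5 ± 2.87 and 112 ± 24.7 CPM. ADM, the peptide adrenomedullin, was lower at -0.45 ± 0.12 with overlapping groups, and its call was lost with every library thinned to the smallest total (-0.27, adjusted p = 0.121).

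Ribosomal protein genes were higher in 30 of 41 and lower in 2 (median 0.27), and none belonged to the clean subset. The 2 lower, RPS9 and RPS18, were all but missing from files made with HISAT2. Nuclear genes of the respiratory chain were higher in 1 of 29 and lower in 8 (median -0.07), and mitochondrially encoded messenger RNAs higher in 2 of 13 and lower in 1 (median 0.10). MT-CO1, a subunit of cytochrome oxidase, rose from 3156 ± 245 CPM to 7373, 6017, 3764, 3918 and 4291 CPM in replicates 1 to 5. The share of counts of mitochondrial messenger RNA was 1.30% ± 0.13 in controls and 1.58% ± 0.38 at 1:40000 (SD, n = 5 each, exact two-sided permutation test, p = 0.214). Lysosome genes were split at 8 and 8 of 25 (median -0.02), GAA, the acid alpha-glucosidase, rising from 36.3 ± 4.18 to 54.8 ± 5.61 CPM and SCARB2, a membrane protein of lysosomes, from 406 ± 15.4 to 537 ± 33.4 CPM. Autophagy genes were higher in 6 of 18 and lower in 4 (median 0.02), ULK1, the initiating kinase, by 0.62 ± 0.12 with overlapping groups. Actin and focal adhesion genes were higher in 7 and lower in 6 of 23 (median -0.03), where MYL9, a myosin light chain (chosen after its values were seen), fell from 430 ± 43.6 to 286 ± 30.3 CPM.

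**Figure D4:**
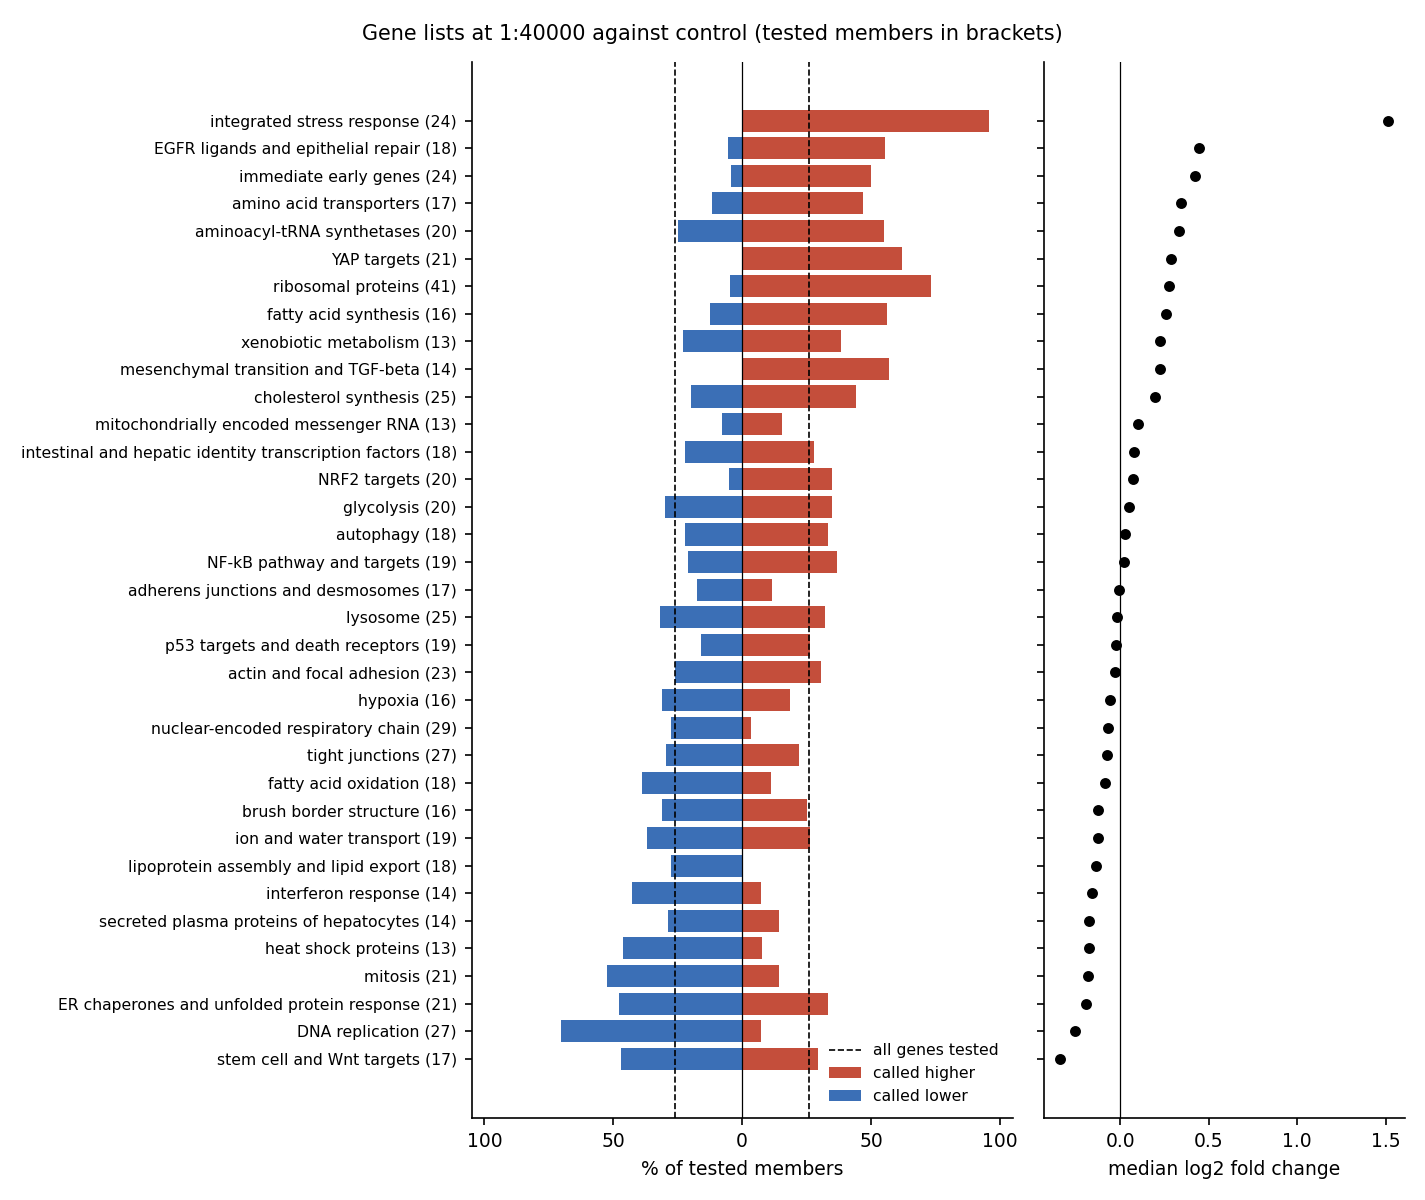
Left, the share of tested members called higher (red, to the right) and lower (blue, to the left) at 1:40000 against control for the 35 lists with at least 13 tested members, with the share over all genes tested as dashed lines (26.1% and 26.0%). Right, the median log2 fold change of each list; the integrated stress response has the highest at 1.52, and the others shown lie between -0.34 and 0.45.

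Of 9 tested Caco-2 and enterocyte markers 2 were higher and 1 lower, CDH17, the liver-intestine cadherin, from 693 ± 55.7 to 869 ± 62.3 CPM. The summed level of the 12 Caco-2 and enterocyte markers was 10170 to 12050 CPM in the controls and 10370 to 11640 CPM at 1:40000. Fibroblast markers summed to 178 to 194 and 139 to 163 CPM. Of 5 tested members 1 was higher and 2 lower, with log2 fold changes from -1.11 to 0.70. DCN, THY1, POSTN and DPT lay below 0.1 CPM in every library. The lowest fold change was that of PDGFRB, a growth factor receptor, at 27.0 ± 6.15 and 12.8 ± 1.87 CPM. Leukocyte markers summed to 24.6 to 31.8 and 27.9 to 39.7 CPM, with 1 of 3 tested members higher and 0 lower. CD14 stood at 8.03 to 12.8 and 9.55 to 15.5 CPM, and CSF1R at 7.37 to 13.1 and 11.1 to 17.7 CPM. PTPRC, CD2, MS4A1, CD68 and TYROBP lay below 0.1 CPM. Endothelial markers summed to 3.77 to 10.8 and 7.41 to 11.6 CPM, squamous markers to 34.2 to 39.7 and 25.6 to 33.0 CPM, and enteroendocrine and tuft cell markers to 0.399 to 2.22 and 1.03 to 2.22 CPM. Paneth cell markers and antimicrobial products summed to 57.0 to 64.9 and 70.9 to 81.4 CPM, with 2 of 6 tested members higher and 1 lower. In bulk RNA, fewer cells of a kind and less RNA per cell cannot be told apart.

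The files of each aligner lacked some genes almost wholly: 270 genes differed from control by 32-fold or more in both rinse aid groups and reached 2 CPM on the side where they were present. Of these, 143 were low in the rinse aid files, and 137 of the 143 (95.8%) have a transcript outside the primary assembly, against 3.37% of genes tested, with 55 on chromosome 6. Their summed level was 6731 to 7165 CPM in the controls and 15.8 to 32.5 CPM at 1:40000. The other 127, of which 119 are processed pseudogenes, summed to 11.6 to 20.9 CPM in the controls and 1249 to 1306 CPM at 1:40000. TJP1, CDHR5, VARS1, ACACA, RPS9, RPS18 and NEU1 are among the former, so their values are not read as changes at 1:40000. The counts of lower genes given above hold 1 such gene in each of the lists of synthetases, tight junctions, brush border structure and fatty acid synthesis, and 2 in each of those of ribosomal proteins and lysosomes. Other lists hold genes that missed the 32-fold limit but were close to it. APOM, in the lipoprotein list, stood at 6.66 to 13.2 CPM in the controls and at 0, 1.91, 0, 0 and 0 CPM at 1:40000. At 1:10000 APOM stood at 0 CPM in every library. The lowest interferon response gene, at -5.15, also missed the limit. Exposure and aligner cannot be told apart for these genes.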

How the data were processed

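Polyadenylated RNA of Caco-2 cells was sequenced in 15 libraries, 5 per group. The deposited files hold raw counts of reads per gene, 1 file per library, made by the authors with cutadapt, STAR 2.7.9a and featureCounts, per the submitters' processing notes, which also list DESeq2 1.32.0. Per the file headers, RNA STAR gave the control counts and HISAT2 those of both rinse aid groups. Files were joined by Ensembl gene identifier without version (60557 shared identifiers, at least 99.977% of the counts of each library). Counts were tested with edgeR 4.0.16 in R 4.3.3 (TMM scaling, its default filter on low counts, robust quasi-likelihood fit of all 15 libraries, group means with no replicate block), with Benjamini-Hochberg adjustment over 13158 genes and a threshold of 0.05. On simulated counts of 12489 genes, this test recovered 93.9% of 99 genes changed by 1 on the log2 scale, with 4 false calls. The simulated counts followed the model of the fit, with few genes changed and no difference in aligner or annotation between groups. They therefore cannot show how many calls in the real data are false. The depth of the shallowest library, 2551839 counts, limits the precision for low genes.

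Genes were named by a rule. It took the 8 highest and 8 lowest fold changes among called clean genes that averaged at least 5 CPM and whose groups did not overlap. It also took the 4 smallest adjusted p-values in each direction among clean genes changed at least 2-fold. Of the 47 gene lists, those with enough tested and called members gave their leading called clean members in the direction that more members took. The stress response, tight junction, metallothionein and cytokine lists gave further called clean members in either direction. Clean genes are protein-coding, with an unchanged gene version, no exon overlap, no pseudogene of the symbol, no transcript outside the primary assembly and no near absent level. The comparison, its members and the lists were chosen with earlier results of these data known. Alternatives were other scalings, filters, DESeq2 1.42.0, thinned counts, left-out libraries and a replicate block. Shares of counts were compared by exact permutation tests with SciPy 1.17.1. Figures were drawn with Matplotlib 3.10.9. Values of a few genes that the rule or the lists hold are not reported here.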

Additional observations from a re-analysis of the deposited data

Results flagged for a closer look

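In 16 of 190 tested groups of 5 libraries, a single library lay apart from the other 4 by more than 0.71 of the group's range, and chance alone gives about 1 such group in 20. Among the controls, replicate 2 was highest for AQP3 at 166 CPM, PHGDH at 254 CPM, GAA at 43.6 CPM and the share of pseudogene counts at 0.248%, and lowest for PARD6B at 75.7 CPM. Control replicate 3 was highest for MTF1 at 18.4 CPM and MAGI3 at 39.9 CPM, control replicate 4 for ARRDC4 at 4.42 CPM, and control replicate 5 for ATF3 at 8.27 CPM. At 1:40000, replicate 1 was highest for TJP3 at 109.9 CPM, NDRG1 at 59.6 CPM, FN1 at 9251 CPM and the total count at 172092447. At 1:40000, replicate 2 was highest for PDIA4 at 464 CPM and APOH at 75.6 CPM and lowest for PKP2 at 390.4 CPM. For AQP3, PHGDH and ATF3 the library that stood apart was a control, and its level still lay on the control side of every library at 1:40000.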

How the results depend on the processing

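Called genes numbered 6859 of 13158 in the reported fit, 6254 to 6818 with a library left out (3132 to 3453 higher, 3071 to 3398 lower), and 805 to 962 higher and 447 to 530 lower by at least 2-fold. With every gene that had a count kept, 1584 and 1017 genes were higher and lower by at least 2-fold, with 60.6% of calls higher against 50.2%. With a filter at 5 CPM these numbers were 322 and 276. With every library thinned to the smallest total, 4929 of 11248 genes were called (43.8%), 514 at least 2-fold higher and 323 at least 2-fold lower. With only the deepest library thinned, to the median total, 6685 of 13076 genes were called (51.1%). A fit of clean genes alone called 2338, with 1176 higher, 1162 lower, and 198 and 84 at least 2-fold, since it tested fewer genes. DESeq2 called 6821 genes. The replicate block gave 7314 calls. Same-numbered libraries correlated at 0.08 to 0.255, 3 of 5 controls and 4 of 5 libraries at 1:40000 correlating best with their own number. The lowest, 0.08, was that of replicate 2, whose library at 1:40000 was the shallowest, and the next lowest was 0.169 for replicate 4. Since the lowest lay under 0.1, the reported fit did not pair libraries by number. Whether same-numbered libraries shared a culture or a batch was not tested. Of 90 named genes 74 kept their direction and call under each of the 24 alternatives that gave them a value, and 0 reversed; 84 had a value with the filter at 5 CPM and 85 after thinning to the smallest total. With replicates 1 and 2 alone, an alternative with fewer samples, 11 calls were lost. The median of the squamous markers was -0.28 over 3 tested members and 0.45 over the 2 still tested after thinning. Some list medians near 0 took either sign, such as those of the lysosome genes (-0.080 to 0.061) and autophagy genes (-0.17 to 0.10). The median of the mitosis genes was 0.076 with replicates 1 and 2 alone, an alternative chosen after seeing the data; the cause was not tested. The depth of 1:40000 replicate 2 limits what low genes can show.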
